A study of Homo sapiens with 2 samples.

Results

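The p53 target genes described here are 35 genes whose transcription p53 is known to raise, taken as every probe whose deposited gene symbol is one of the 35 names. All 35 were on the array, with 52 probes, among 34757 gene symbols in all. Cells of A375, an established line of human malignant melanoma, were transfected with si-THOC2, an siRNA against the mRNA export factor THOC2, or with NC, a control siRNA, and total RNA of 1 culture per condition was hybridized to 1 one-colour Agilent array each, with harvest placed at 48 h by the labels. The source field of each sample contradicts its title and its description. Conditions here follow titles and descriptions, and every sign below would turn if the source field were right. The siRNA chosen for the arrays out of those listed in the methods is not named there, and no replicate, rescue or second siRNA was on arrays. With 1 array per condition no test could be made, and all differences are between these 2 arrays.

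p53 is a transcription factor that stress such as DNA damage stabilises. In unstressed cells the ubiquitin ligase MDM2 keeps it low, and MDM2 is itself a p53 target, so the response limits itself. Its targets stop the cell cycle, repair DNA, buffer oxidative stress or start cell death. p53 binds DNA at a pair of decamer half-sites, and some of its targets carry such a pair next to the transcription start.

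Promoter windows of RefSeq (GRCh38.p14, 250 bases before to 50 after a start) were given for 29 of the 35 genes. They were searched for the p53 response element, read as adjoining half-sites of 10 bases with the fixed C and G of each in place and at most 3 other mismatches. The motif reads the same on both strands, and its limit was set after the matches were seen. Such a pair stood in the windows of 7 of the 29 genes (24.1%), against 1.37% of 27305 genes. These 7 sites are shown because they are the feature of p53 binding that the target genes hold in the sequence at hand. Capitals mark the pair of half-sites.
DDB2, chr11:47214964-47214993, plus strand: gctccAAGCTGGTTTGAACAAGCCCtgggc
AEN, chr15:88621301-88621330, plus strand: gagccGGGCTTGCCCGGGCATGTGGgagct
MDM2, chr12:68808918-68808947, plus strand: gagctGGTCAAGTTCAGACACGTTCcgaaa
FDXR, chr17:74872991-74873020, minus strand: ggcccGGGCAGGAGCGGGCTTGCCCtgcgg
GDF15, chr19:18386181-18386207, plus strand: tgcacAGCCATGCCCGGGCAAGAACtc
RPS27L, chr15:63157522-63157551, minus strand: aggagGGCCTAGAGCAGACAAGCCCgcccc
SESN1, chr6:109009013-109009042, minus strand: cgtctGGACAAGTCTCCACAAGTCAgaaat
The DDB2 site had 1 mismatch and spanned the start. The sites of AEN and MDM2 had 2 mismatches each, and ended 15 bases before the AEN start and 75 or 82 bases before the starts of 2 overlapping MDM2 windows. The other 4 had 3 mismatches. A match is a description of the letters, and p53 binding was not measured.

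The signal of a spot is its brightness after the scanner software subtracted the background, in arbitrary units. The 75th percentile of the log2 signal lay 0.31 lower on the si-THOC2 array, and each array was reduced by its own percentile, so a probe with equal signals has a scaled log2 fold change of 0.31. A log2 fold change below 0 means lower with si-THOC2. A probe was compared where its signal was well above background on at least 1 array, and a gene's value is the mean over its compared probes. Repeated spots of 300 probes gave a technical SD of the log2 fold change of 0.05 at a mean log2 signal over 8, 0.10 from 6 to 8, and 0.17 from 4 to 6 (5 probes only). These SDs leave out the spread between cultures. Each p53 target probe was printed on 1 spot, so its error is taken from these bands. Of the targeted gene, THOC2, one probe went from 136 with NC to 40.9 (log2 fold change -1.42) and the other from 67.3 to 35.1 (-0.63), so both were lower on the array that title and description call si-THOC2. Of 10 melanocyte and melanoma markers, 6 were measured on both arrays. SOX10, a regulator of the lineage, went from 6196 to 5196 (0.06), MITF was at -0.03, PAX3 at 0.22 and S100A1 at -0.10. S100B went from 199 to 102 (-0.66) and the pigment gene DCT from 18.0 to 24.4 (0.75). A probe of MLANA was well above background with si-THOC2 alone, at 18.7, and at least 1.58-fold higher there, while PMEL, TYR and TYRP1 were not well above background on either array. Of the markers of other cell types, 2 of 4 keratinocyte, 1 of 4 fibroblast, 3 of 4 leukocyte and 3 of 3 endothelial genes were above background on the NC array. The keratinocyte genes went opposite ways, KRT10 from 32306 to 20623 (-0.34) and KRT14 from 83.9 to 104 (0.62) on its probe on both arrays. The fibroblast gene DCN went from 62.4 to 149 (1.56) and the leukocyte gene CD3E from 25.3 to 37.4 (0.87), and no leukocyte or endothelial gene had an NC signal over 27.4. The part of all these markers in the p53 target values was not tested.

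No p53 target gene was lower or higher by 2-fold on the si-THOC2 array. Of the 35 genes, 34 (97.1%) had a probe well above background on both arrays, against 45.0% of all gene symbols, and none of the 34 was past 2-fold. Among 17514 compared genes 3.34% were lower and 2.96% higher by 2-fold, and among the 15647 genes measured on both arrays 0.352% were lower and 0.837% higher. At 1.5-fold the count was again 0 of 34, against 2.61% lower and 3.53% higher of the genes measured on both arrays. With 34 genes, counts of 0 at 2-fold are near the shares of genes measured on both arrays, and those at 1.5-fold are not far from them. The 34 values ran from -0.50 for CYFIP2 to 0.43 for TNFRSF10C, with a median of -0.07 and an SD across genes of 0.23. All genes measured on both arrays had a median of 0.04 and an SD of 0.31. In these bulk samples, fewer cells with a transcript and less of it per cell cannot be told apart.

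**Figure D1:**
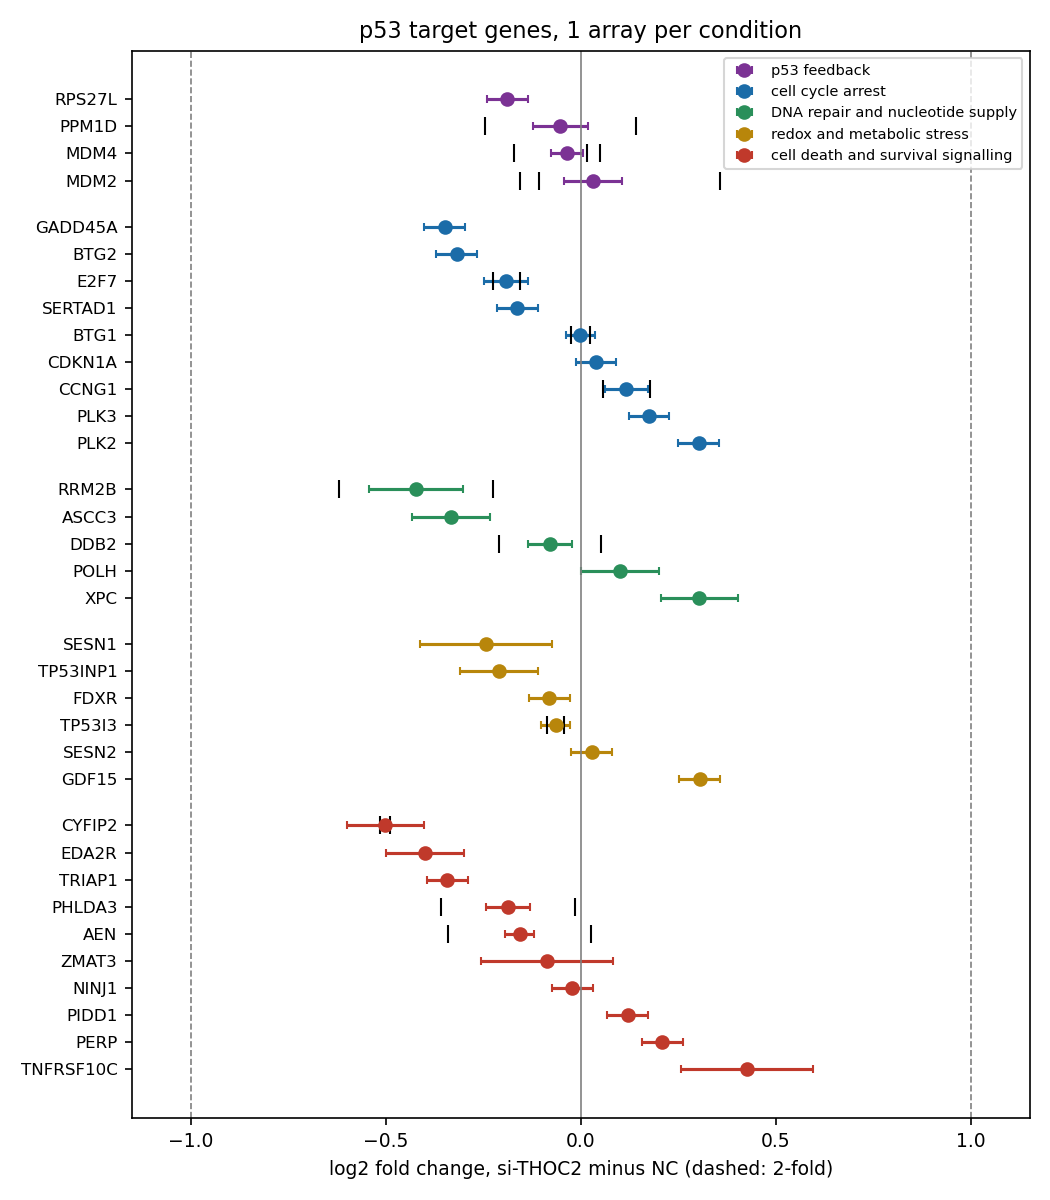
The horizontal axis is the log2 fold change of each p53 target gene, si-THOC2 minus NC, with 1 array per condition. Points are gene values, bars 1 technical SD from repeated spots, black ticks single probes of genes with several, and colours the roles. All 34 points lie between -0.50 and 0.43, inside the dashed 2-fold lines.

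The p53 target genes lay more often below 0 than other genes. Of the 34 genes, 22 (64.7%) were below 0, against 43.2% of genes measured on both arrays, and 25 of 34 were below the median of those genes. Among 55 other direct targets of p53 measured on both arrays, 24 were below 0 and the median was 0.04, as for all genes. The p53 target genes described here were chosen with earlier results of these data known. The quartiles of the 34 were -0.21 and 0.08, and those of all genes on both arrays -0.12 and 0.20. At 1.2-fold, a bar chosen after the values were seen, 7 of 34 genes (CYFIP2, RRM2B, EDA2R, GADD45A, TRIAP1, ASCC3 and BTG2) were lower and 4 (TNFRSF10C, GDF15, XPC and PLK2) higher, against 13.0% and 17.5% of the genes measured on both arrays. With scaling to the 75th percentile of probes on both arrays these counts were 9 and 1. That scaling also moved the median of all compared genes from 0.02 to -0.04, and the shares of all genes past 1.2-fold were not counted under it. GDF15, XPC and PLK2 had nearly equal signals on both arrays before scaling. Of the 48 p53 target probes measured on both arrays, 16 (33.3%) were lower by over 2 technical SDs and 8 (16.7%) higher, against 19.9% and 31.2% of 22207 probes. These shares describe 2 arrays, and a shift of this size between cultures of the same kind could not be measured.

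**Figure D2:**
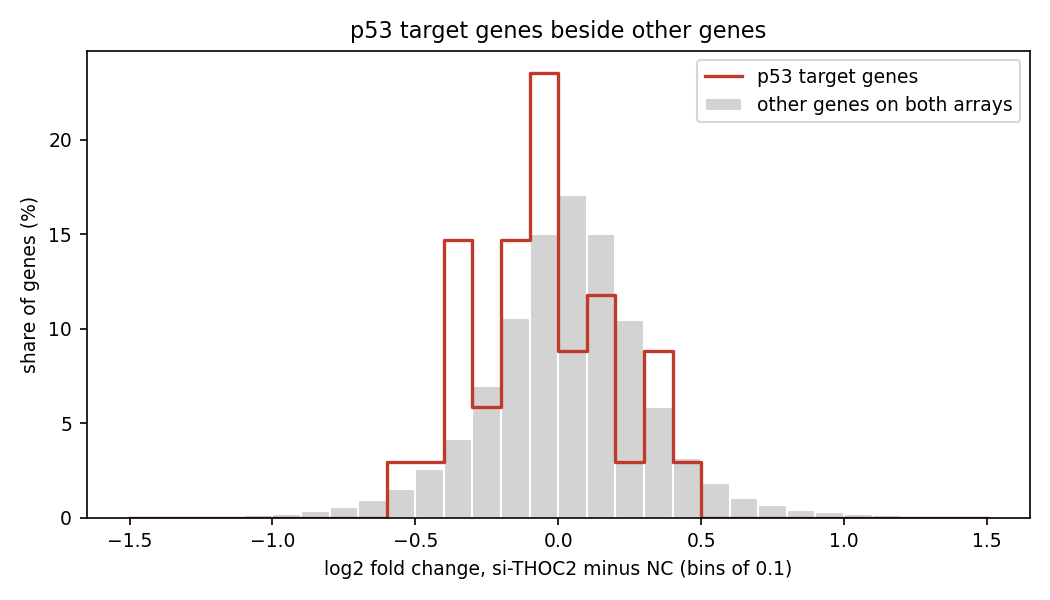
The horizontal axis is the log2 fold change, si-THOC2 minus NC, in bins of 0.1, and the vertical axis the percent of genes in each bin. Grey bars are the other genes measured on both arrays and the red line the 34 p53 target genes, whose median of -0.07 lies to the left of the 0.04 of all genes.

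Of the 4 feedback genes of p53 itself, MDM2, MDM4 and PPM1D had means close to 0, and RPS27L was lower, at -0.19. MDM2, the ubiquitin ligase that degrades p53, had 3 probes on chromosome 12 (hg19). The probe from 69233570 to 69233629 had signals of 86.6 and 89.4, which scaling set at 0.36 (technical SD 0.10). The probe from 69233822 to 69233881 went from 29.3 to 21.2 (-0.16, technical SD 0.17), and the one from 69238891 to 69238950 from 111 to 83.5 (-0.11, technical SD 0.10). The probes thus did not share a direction, their range of 0.51 was the widest of any p53 target gene with several probes, and the mean was 0.03. MDM4, a relative of MDM2 that blocks p53 activity, had 3 probes between -0.17 and 0.05. PPM1D, a phosphatase that switches the damage response off, had signals of 130 and 88.4 on one probe (-0.25) and of 256 and 227 on the other (0.14). RPS27L, a ribosomal protein relative tied to MDM2, went from 10235 to 7248 (-0.19, technical SD 0.05).

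Genes of cell cycle arrest were spread on both sides of 0, with 5 of 9 below it and a range from -0.35 to 0.30. CDKN1A encodes p21, the inhibitor of cyclin-dependent kinases through which p53 arrests the cycle. Its only probe (chromosome 6, 36652178 to 36652237) had signals of 684 and 567, and after scaling it stood at 0.04 (technical SD 0.05). That is a 1.03-fold difference, smaller than the technical SD, and its sign turned with other scalings and centrings, down to -0.03 with block centring. GADD45A, a stress sensor of the growth arrest family, was the lowest of the group, with signals of 7895 and 5003 (-0.35). BTG2, an antiproliferative regulator of mRNA decay, followed with 583 and 377 (-0.32). Its relative BTG1 had probes at 0.02 and -0.03, one from 5774 to 4736 and the other from 30504 to 24177. E2F7, a repressor of cell cycle genes, had both probes below 0, at -0.23 and -0.16. SERTAD1, which binds cyclin-dependent kinase 4, went from 10362 to 7467 (-0.16). The kinase PLK2 had nearly equal signals on both arrays, 361 and 359, which scaling set at 0.30. Its relative PLK3 went from 5101 to 4646 (0.17), and CCNG1, the cyclin G1 gene, had probes at 0.06 and 0.18.

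**Figure D3:**
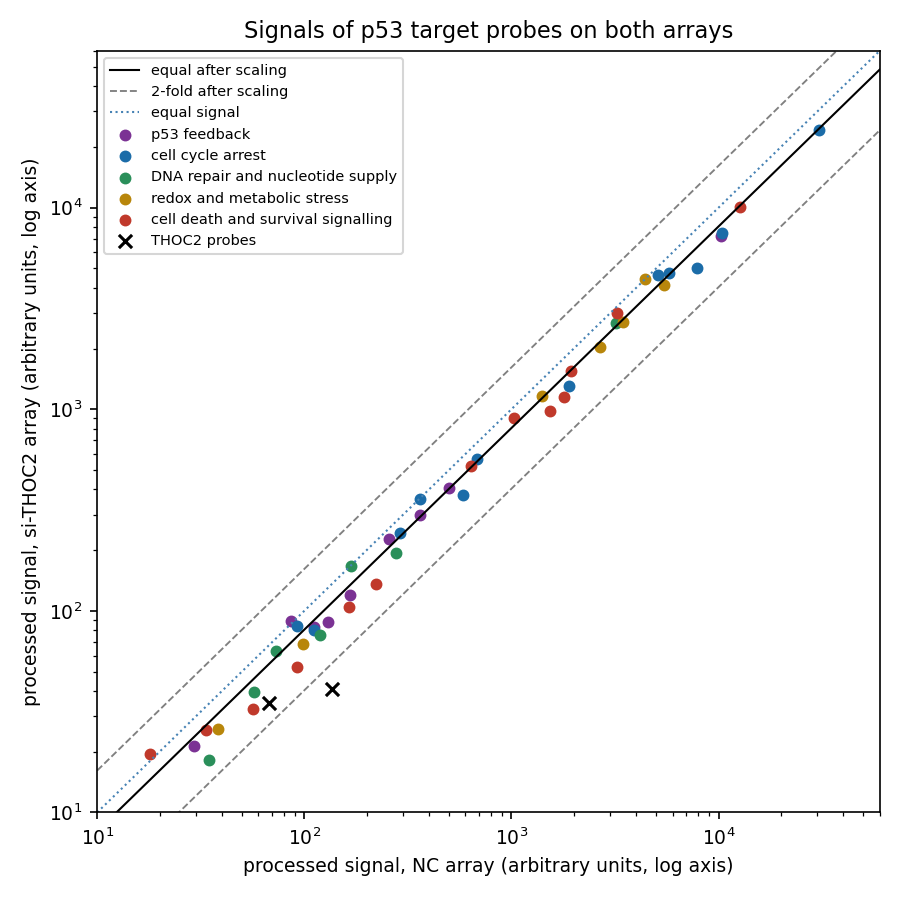
The axes are the processed signals of each p53 target probe on the NC and the si-THOC2 array in arbitrary units, both on log axes, coloured by role. The 48 probes follow the solid line of equal scaled signal and stay within the dashed 2-fold lines, 46 of them lie below the dotted line of equal signal, and crosses mark the THOC2 probes, 1 of which is past 2-fold.

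Genes of DNA repair and nucleotide supply held the only p53 target probe past 1.5-fold. RRM2B, the p53-induced subunit of ribonucleotide reductase that makes deoxynucleotides for repair, had a probe with a signal of 34.8 on the NC and of 18.3 on the si-THOC2 array (-0.62, technical SD 0.17). Its other probe went from 57.1 to 39.4 (-0.23), so both were lower and the gene's mean was -0.42. Both probes are dim, and with normexp, a background correction by a model of signal and noise with an offset added, the mean was -0.09. At probe level, 1 of 48 p53 target probes was lower and 0 higher by 1.5-fold, and 0 were past 2-fold. Shares of the 25345 compared probes were 7.69% and 6.14% at 1.5-fold, and 3.33% and 2.93% at 2-fold. That set is unlike the 48, because it also holds probes well above background on 1 array only. Without such probes, the 2-fold calls of the whole array fell from 844 lower and 743 higher to 81 and 184. At 1.5-fold the like comparison was made for genes only, with shares of 2.61% and 3.53%. ASCC3, a helicase of alkylation repair, went from 119 to 76.2 (-0.33, technical SD 0.10). XPC, which recognises damage for nucleotide excision repair, stood on the other side, with signals of 168 and 167 and a scaled log2 fold change of 0.30 (technical SD 0.10). DDB2, another damage sensor of that repair route, had probes of different transcripts, one from 277 to 194 (-0.21) and one from 3205 to 2679 (0.05). POLH, a polymerase that copies past damage, had 1 probe on both arrays, from 72.7 to 62.9 (0.10), and its other probe was not well above background on either array.

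Genes of redox and metabolic stress had a median of -0.07 over 6 measured genes. GDF15, a secreted stress hormone of the TGF-beta family, had almost the same signal on both arrays, 4425 with NC and 4410 with si-THOC2, and a scaled log2 fold change of 0.30 (technical SD 0.05; chromosome 19, 18499890 to 18499949). Among the genes measured on both arrays, 13.8% were higher than GDF15. SESN2, a sestrin that restrains mTORC1 under stress, went from 1410 to 1160 (0.03, technical SD 0.05), a value that lay at -0.03 with quantile normalization and at -0.06 with normexp. Its relative SESN1 was dim, with 38.1 and 26.0 (-0.24, technical SD 0.17), and lay at 0.01 after normexp background correction. TP53I3, a quinone oxidoreductase, had probes at -0.09 and -0.04 with NC signals of 5447 and 3448. FDXR, ferredoxin reductase of the mitochondria, went from 2674 to 2040 (-0.08). TP53INP1, an autophagy and stress regulator, went from 98.7 to 68.8 on its measured probe (-0.21), and its other probe was not well above background on either array. The probe of SPATA18, which takes part in mitochondrial quality control, was not well above background on either array and gave no fold.

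Genes of cell death and survival signalling held both ends of the range. CYFIP2, a p53-induced gene that encodes a subunit of the actin-regulating WAVE complex, was the lowest of the 34, but not in every alternative. TRIAP1 was lower with block centring and TP53INP1 with no detection filter. With normexp several genes were lower than CYFIP2, among them GADD45A, BTG2, TRIAP1 and RPS27L. The CYFIP2 probe from 156786025 to 156786084 on chromosome 5 went from 56.4 to 32.4 (-0.49, technical SD 0.17), and the one from 156822135 to 156822194 from 92.7 to 52.4 (-0.51, technical SD 0.10). These 2 probes lay in different parts of the array and differed by 0.02, the closest of the 12 p53 target genes with several compared probes. With normexp the CYFIP2 mean was -0.22, against -0.47 for GADD45A. Of the genes measured on both arrays, 3.87% were lower than CYFIP2. EDA2R, a receptor of the tumor necrosis factor receptor family, went from 223 to 136 (-0.40, technical SD 0.10) on its measured probe, and the other, of another transcript, was not well above background on either array. TRIAP1, a small mitochondrial protein that opposes apoptosis, went from 1797 to 1144 (-0.34, technical SD 0.05), in a block of spots whose probes had a median of 0.22, and with block centring it stood at -0.56, against -0.48 for CYFIP2.

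The death-related members above 0 were fewer. TNFRSF10C, a decoy receptor for the death ligand TRAIL, had signals of 18.0 and 19.5, close to the lowest signals well above background (14.7 on the NC and 15.9 on the si-THOC2 array), and a scaled log2 fold change of 0.43 (technical SD 0.17). PERP, a membrane protein of desmosomes and apoptosis, went from 3218 to 3001 (0.21), and PIDD1, a scaffold that activates caspase-2, from 1030 to 903 (0.12). AEN, a nuclease of apoptosis, had 2 probes on chromosome 15, one from 89174348 to 89174407 at 0.03 and one from 89174900 to 89174959 at -0.34. PHLDA3, an inhibitor of AKT, had probes at -0.36 (from 165 to 104) and -0.02 (from 1931 to 1541). ZMAT3, an RNA-binding regulator of splicing, was at -0.09 and NINJ1, which ruptures the membrane of dying cells, at -0.02. Of the 12 genes with several compared probes, 6 had all probes on one side of 0, and their median range between probes was 0.24, against 0.20 for 3718 genes of the array with several probes on both arrays.

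The genes with a p53 site in the promoter window had values on both sides of 0. The 7 genes had a median log2 fold change of -0.08, with RPS27L, SESN1, AEN, FDXR and DDB2 below 0 and MDM2 and GDF15 above. The 21 measured genes with a window and no such pair had a median of -0.02, with 12 of 21 below 0. DDB2, whose site had the fewest mismatches, was at -0.08, and MDM2 at 0.03.

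Genes that control p53 were also without a 2-fold difference on both arrays. Of 25 listed regulators, 23 were measured, with a median of 0.11 and 7 below 0, against 43.2% of genes on both arrays. They ran from -0.57 for USP7, which removes ubiquitin from MDM2 and p53, to 0.45 for the checkpoint kinase gene CHEK1. On both arrays 0 of 23 were past 1.5-fold, against 2.61% lower and 3.53% higher of all genes there. At 2-fold the shares of all genes were 0.352% and 0.837%, so with 23 genes counts of 0 are near these shares. ATR, a damage kinase gene, was at -0.27 on the probe measured on both arrays, and its other probe, at 21.7 on the NC array and not well above background on the other, was at least 1.1-fold lower.

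Other direct targets of p53 centred where all genes did. Of 70 further targets, 55 were measured on both arrays, with a median of 0.04, and 24 of the 55 were below 0. Of the 55, 1 was lower by 1.5-fold (RAP2B, a small GTPase, -0.60) and 2 were higher, counts near the 2.61% and 3.53% of all genes on both arrays. LAPTM5, a lysosomal membrane protein, was the only one past 2-fold, from 23.0 to 47.9 (1.37, technical SD 0.17), and IGFBP3, which binds insulin-like growth factors, went from 15596 to 22194 (0.82, technical SD 0.05). Of its death genes, BAX stood at 0.31, with a probe from 5699 to 5967 at 0.38 and another at 0.24, and the TRAIL receptor gene TNFRSF10A at 0.19. BBC3 was at 0.02, FAS at -0.04, and PMAIP1 and TNFRSF10B at -0.10 each.

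Cell cycle genes that p53 lowers through p21 and the DREAM repressor complex lay mostly above 0. All 24 listed genes were measured, and their median of 0.17 compares with 0.04 for all genes on both arrays. Below 0 were 4 of 24, against 43.2% of all genes on both arrays. None was past 2-fold, against 0.352% lower and 0.837% higher of those genes. Higher by 1.5-fold were 2 of 24, against 3.53%. E2F1, which drives entry into S phase, went from 333 to 440 (0.71, technical SD 0.05), and the replication helicase gene MCM5 had both probes higher, at 0.73 and 0.65. The mitotic gene CDK1 had signals of 598 and 577, which scaling set at 0.26. PLK1 was at 0.21, the mean of a probe from 494 to 410 (0.04) and a dim one from 39.1 to 41.2 (0.38). CCNB1 was the lowest at -0.15. CHEK1 stands in this list and in that of p53 regulators.

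**Figure D4:**
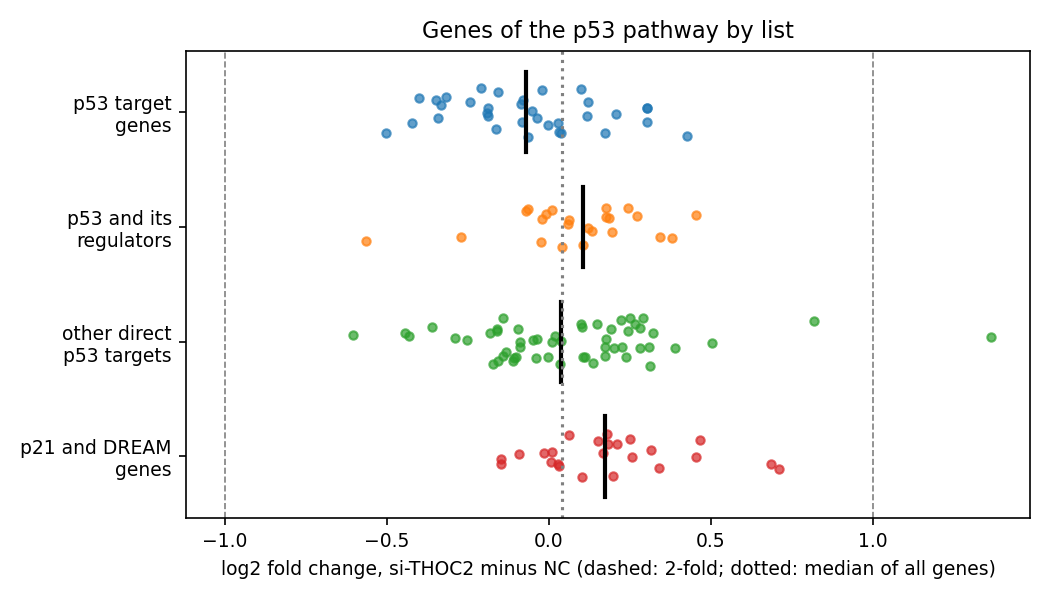
The horizontal axis is the log2 fold change of genes measured on both arrays, si-THOC2 minus NC, and each row is a gene list (34, 23, 55 and 24 genes). Points are genes, spread vertically at random to be seen, black bars list medians (-0.07, 0.11, 0.04 and 0.17), and the dotted line the median of all genes (0.04), with LAPTM5 as the only point past the dashed 2-fold lines.

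The values of single members held to the processing in unequal measure. Of the 34 genes, 26 kept the sign of their value in all 11 alternatives tried, 17 below 0 and 9 above. The other 8, CDKN1A, SESN2, MDM2, MDM4, PPM1D, DDB2, SESN1 and ZMAT3, changed sign in at least 1, so their side of 0 depends on the processing. The 11 are not independent checks. Median scaling and scaling to the percentile of probes on both arrays each lowered every member by a constant. No value below 0 could change sign under these scalings, so they did not test the 17 genes below 0. Both arrays above background and dim signals at their limit could not change any member, since no p53 target probe was above background on 1 array only. The values normalized by the authors nearly repeated quantile normalization, with a member median of -0.11 in both. The number of p53 target genes below 0 ran from 20 with the brightest probe of each gene to 25. The number below the median of all compared genes ran from 21 with the brightest probe to 30 with no detection filter. No p53 target gene was past 2-fold in any of the 11, and 0 of 34 is near the shares given above for genes measured on both arrays. The number lower by 1.2-fold ran from 6 to 9, and the number higher from 0 with normexp background correction to 5 without a detection filter. The shares of all genes past 1.2-fold were not counted in these alternatives.

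**Figure D5:**
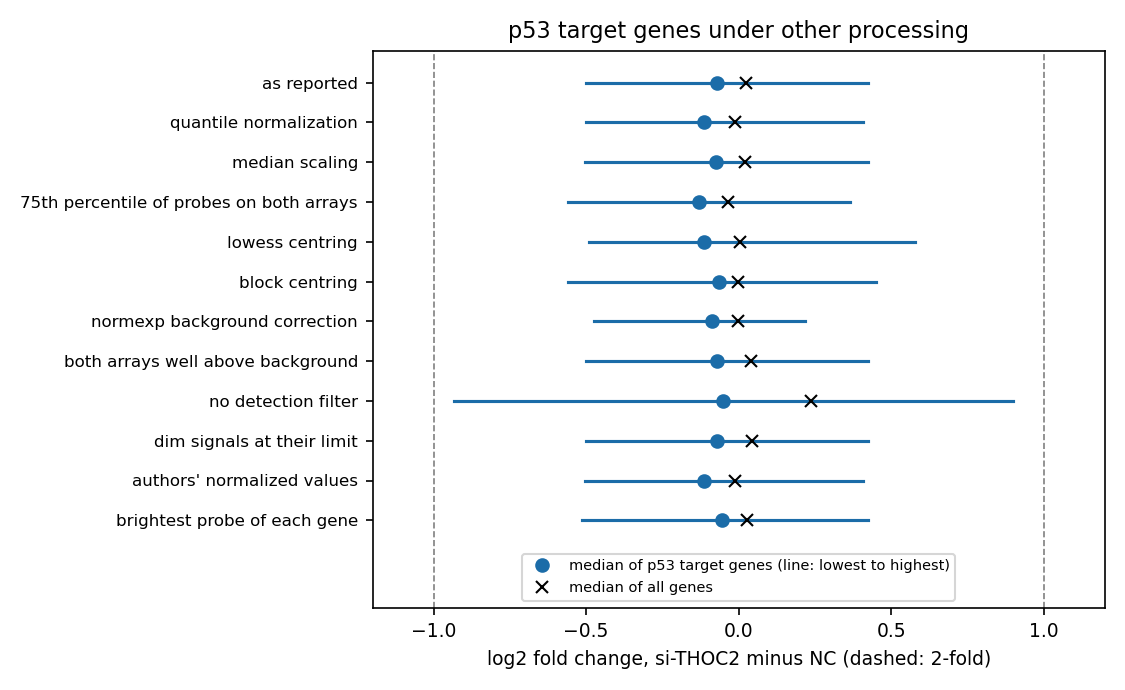
The horizontal axis is the log2 fold change, si-THOC2 minus NC, and each row is a way of processing the same 2 arrays. Circles are medians of the p53 target genes, lines run from the lowest to the highest gene, and crosses are medians of all compared genes. The circles lie between -0.13 and -0.05, left of the cross in every row, and no line reaches the dashed 2-fold lines.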

How the data were processed

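Total RNA of A375 cells, 1 culture with si-THOC2 and 1 with NC, was hybridized to Agilent SurePrint G3 v3 arrays, 1 for each culture. Deposited intensity values of 62976 spots per array come from the authors' use of Feature Extraction 10.7.1.1. That program removed background and array trends and marked spots, in deposited columns, as outliers, saturated or well above background. The authors also deposited normalized log2 values, whose sorted values differ between arrays by at most 0.00079. A deposited table of the authors' fold changes was not used. The Student's test of the methods needs replicates, so none was made.

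Spots of controls or with outlier flags (230 and 253) were left out, none was saturated, and log2 spots of a probe were averaged, which left 58199 probes. Each array was reduced by its 75th percentile. The share of probes well above background was 42.3% with NC and 39.4% with si-THOC2. Fold calls were made at 2-fold. Precision is limited by the number of arrays.

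Alternatives were quantile normalization, median scaling, the 75th percentile of probes on both arrays, lowess centring (span 0.3), centring by block (128 blocks), normexp (offset 50), both arrays above background, dim signals at their limit, no detection filter, the log2 values normalized by the authors, the brightest probe of a gene, and other folds. Members and gene lists were chosen with earlier results of these data known. All members were to be named, with signals for those with a probe past 1.5-fold or with probes at least 1 log2 unit apart in opposite directions, and for CDKN1A, MDM2, GDF15 and SESN2. Of other genes, THOC2 and list genes past 2-fold on both arrays were to be named, and further names and signals were added after the values were seen. Older symbols were matched through the RefSeq gene table, which also gave the promoters. Probe positions are hg19. One listed gene is not reported here by name. The calculation was tested on simulated data. Python 3.11.15, numpy 2.4.6, pandas 2.3.3, statsmodels 0.14.6, R 4.3.3 and limma 3.58.1 were used.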

Additional observations from a re-analysis of the deposited data

How the results depend on the processing

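No paired analysis was possible because each condition has 1 array. The count of p53 target genes past 2-fold was 0 in both directions in every alternative. With the other settings kept it was also 0 at a fold of 3 and of 1.5, and with no detection filter 1 was lower and 1 higher by 1.5-fold. At a fold of 1.2, added after seeing the data, it was 7 lower and 4 higher. The median of the p53 target genes was below 0 in all 11 alternatives and differed from -0.07 by more than the median technical SD of a gene, 0.05, only with the 75th percentile of probes on both arrays, at -0.13. Both arrays above background and dim signals at their limit could not move this median, since they left every member value as it was. Median scaling and the 75th percentile of probes on both arrays could not raise it, since each lowered all members by a constant. The median of all genes lay between -0.04 and 0.04 in the alternatives, apart from 0.24 with no detection filter, which adds probes near background. The values of 0.04 came from both arrays above background and dim signals at their limit, which kept the scaling. Of 385 values of single genes, THOC2 included, 106 moved by more than their technical SD. THOC2, the only one of these genes past 2-fold, kept its sign but was at -0.51 with normexp, under 2-fold. With normexp CYFIP2 was at -0.22 and RRM2B at -0.09, and with no detection filter TP53INP1, averaged like EDA2R with a dim probe, was at -0.93 and EDA2R at -0.03.

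Against 844 lower and 743 higher probes of the whole array, normexp gave 33 and 79, both arrays above background 81 and 184, no detection filter 1929 and 3127, dim signals at their limit 225 and 476, a fold of 3 502 and 447, and a fold of 1.5 1948 and 1556. Lowess centring gave 633 and 856, so more higher than lower. The cause of the changes with normexp and lowess was not tested. For dim signals at their limit, dim signals were raised to the lowest signal well above background on their array, which changed the values. The remaining counts named follow from the probes or the fold taken.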
